A study of Mus musculus with 10 samples.

Results

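Splicing factors of the SR family, hnRNP proteins and the protein subunits of the spliceosomal snRNPs were examined as transcripts in mouse muscle stem cells. The members are the genes whose symbol begins with Srsf and a digit, with Hnrnp, with Snrp, or with Sf3a or Sf3b and a digit. There were 52 of them among the 12803 genes of the deposited table, and no member had a repeated symbol. They fall into 7 role groups: 11 SR proteins, 20 hnRNP proteins in 3 groups, 8 Sm core proteins, 4 proteins specific to the U1 or U2 snRNP and 9 subunits of the SF3 complex. The members were chosen by symbol, with earlier results of these data known.

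The cells came from limb muscles of young male C57BL/6 mice and were gated by surface proteins as VCAM+ and as CD45-, CD31- and Sca1- (without markers of blood, endothelial and other stromal cells), with 1 animal behind each library. The 4 Tub libraries came from cells cultured for 24 h in DMSO with Tubastatin A at 40 µM, which inhibits the deacetylase HDAC6. The 3 Veh libraries came from cells kept for 24 h in culture with DMSO alone, and the 3 FI libraries came from freshly isolated cells at 0 h, which the labels also list as vehicle. Both cultures contained 10% horse serum and used plates coated with extracellular matrix. The comparisons were Veh against FI, which follows the cells from the sort into culture, Tub against Veh, which follows the inhibitor at the same hour, and Tub against FI. These comparisons share libraries, so each is described with its own values.

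A pre-mRNA is spliced by the spliceosome, which is assembled on most introns from the U1, U2, U4, U5 and U6 snRNPs. Each snRNP is a small nuclear RNA with a ring of Sm or LSM proteins and a set of specific proteins, and the SF3A and SF3B complexes belong to the U2 snRNP and recognise the branch point. SR proteins bind exons and favour their inclusion, hnRNP proteins coat nascent transcripts and often repress splice sites, and kinases of the CLK and SRPK families phosphorylate the SR proteins. Quiescent muscle stem cells are small, with little RNA, and after activation they enlarge and build up their machinery for gene expression before the first division.

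Levels are in RPKM (reads per kilobase of exon and relative to a scaled library size), so levels of different genes are compared per length. A change is the difference of log2(RPKM + 1) with its standard error (SE), and a gene is called higher or lower where limma's adjusted p over all 12803 genes is under 0.05. The pseudocount of 1 RPKM understates the change of genes with low levels. Reads in the table numbered between 37.0M and 54.5M per library. RPKM summed per library to more in FI libraries than in cultured ones, and dividing each library by its own sum (TPM scale) moved the median of all genes to 0.34 in Veh against FI and to 0.43 in Tub against FI, against -0.03 in both on the deposited scale. In Tub against Veh the median of all genes was 0.09 on the TPM scale and 0.02 on the deposited scale. In these bulk libraries, fewer cells of a type and less RNA per cell cannot be told apart.

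Pax7, the transcription factor that marks muscle stem cells, averaged 2.14 ± 0.399 RPKM in Tub, 4.73 ± 0.609 RPKM in Veh and 22.4 ± 9.48 RPKM in FI libraries (SD, n = 4, 3 and 3). Of 10 muscle stem cell markers, 9 were lower in Veh than in FI libraries, and so were 9 of 9 endothelial and 6 of 7 fibro-adipogenic markers in the table. The summed level of the fibro-adipogenic markers was 7.44 to 13.1 RPKM in Tub, 33.9 to 43.4 RPKM in Veh and 267.2 to 682.0 RPKM in FI libraries. Endothelial markers summed to 6.25 to 6.96 RPKM in Tub, 3.34 to 4.55 RPKM in Veh and 47.7 to 58.4 RPKM in FI libraries. Immune markers, of which 3 of 9 were in the table, stayed at or below 8.83 RPKM in sum in every library. Myofibre markers summed to 395.8 RPKM in Tub replicate 2 and to 116.6 RPKM or less in every other library, and pericyte and smooth muscle markers summed to 11.9 to 62.5 RPKM in Tub, 175.4 to 241.0 RPKM in Veh and 199.9 to 246.1 RPKM in FI libraries. The part of these markers in the results on the members was not tested. Mcm5, a DNA replication gene, averaged 1.86 ± 0.394 RPKM in Tub, 118.6 ± 11.6 RPKM in Veh and 10.9 ± 1.15 RPKM in FI libraries. How this difference relates to the members was not tested either. Hdac6, the target of the inhibitor, averaged 6.60 ± 0.717 RPKM in Tub and 6.16 ± 0.313 RPKM in Veh libraries and was not called (adjusted p = 0.58), and since the inhibitor acts on the protein this level does not check the treatment.

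Summed over all 52 members, the level was 2645.2 ± 114.3 RPKM in Tub, 4105.6 ± 174.8 RPKM in Veh and 3875.8 ± 760.7 RPKM in FI libraries. As a share of all RPKM in the library, the members took 1.07% in Tub, 1.53% in Veh and 0.946% in FI libraries on average. The range of the share was 1.03% to 1.10% in Tub, 1.52% to 1.54% in Veh and 0.769% to 1.04% in FI libraries, so the Veh libraries lay above all others and the Tub and FI ranges overlapped. FI replicate 1 held the lowest sum of its group, at 3039.5 RPKM.

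In Veh against FI, 24 members were called higher and 13 lower, and 15 were not called. These are 46.2% and 25.0% of the members, where 32.0% of all genes were called higher and 35.0% lower, 67.0% in all. The median change of the members was 0.39, against -0.03 over all genes. On the TPM scale 39 members were higher and 5 lower, with a median of 0.98 against 0.34 over all genes, and there 49.1% of all genes were higher and 22.6% lower, 71.7% in all (75.0% and 9.62% of the members). Without FI replicate 3 the number called lower was 8, and fitted on only the FI and Veh libraries it was also 8.

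In Tub against Veh, 3 members were called higher and 36 lower, and 13 were not called. Thus 69.2% of the members were lower, where 29.7% of all genes were called lower and 29.6% higher, 59.3% in all. The median change of the members was -0.65, against 0.02 over all genes, and it was -0.53 on the TPM scale, where 34 (65.4%) were lower and 3 higher, beside 26.4% of all genes lower and 34.9% higher, 61.3% in all. Every Tub library lay below every Veh library for 40 members, which is to be read beside the 33.8% of all genes with that order. This was the comparison in which the fewest members were left uncalled, and no member called in it reversed under any alternative that was run.

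In Tub against FI, 9 members were higher, 23 lower and 20 not called. The share called lower was 44.2%, where 35.2% of all genes were lower, 29.8% higher and 64.9% called in all. The median change was -0.17, against -0.03 over all genes. This split depended on the scale: on the TPM scale 30 members were higher and 11 lower, and their median of 0.44 lay beside 0.43 over all genes. These are 57.7% and 21.2% of the members, near the 54.7% of all genes higher and 19.4% lower, 74.1% in all, on that scale. Without FI replicate 2 the members called higher numbered 14 on the deposited scale.

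**Figure D1:**
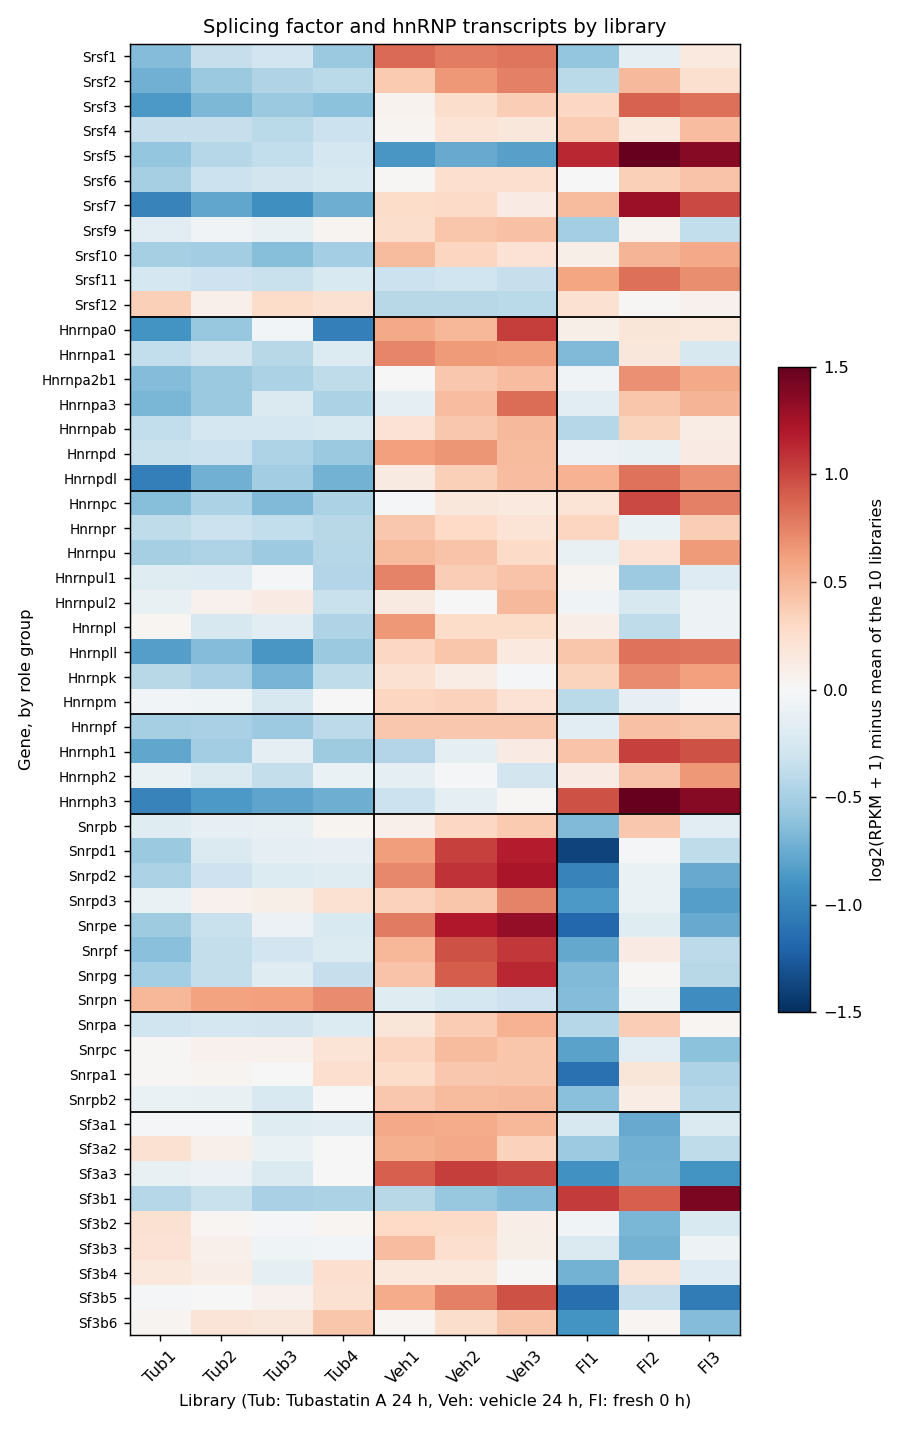
Level of each of the 52 members in each of the 10 libraries, as log2(RPKM + 1) minus the gene's mean over the 10 libraries, with genes in rows by role group (black lines, from SR proteins at the top to the SF3 complex at the bottom) and libraries in columns (Tub, Veh, FI). Colours end at 1.5 in either direction; the Sm core and SF3 rows are mostly red in the 3 Veh libraries, the Srsf5, Hnrnph3 and Sf3b1 rows are red in the 3 FI libraries, and FI replicate 1 is paler or bluer than FI replicates 2 and 3 in many rows.

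The promoters of the 3 members with the lowest and the 3 members with the highest change in Veh against FI are shown, as the ends of the range. Each run covers 250 bases before to 50 bases after the start of the gene in RefSeq (build GRCm38.p6) on the gene's own strand, and capitals mark CCGGAAG, a core bound by ETS factors, and GGGCGG, the GC box, on either strand, also where the 2 overlap. Srsf5 (chr12:80945249-80945548, plus strand), Sf3b1 (chr1:55027429-55027728, minus strand) and Hnrnph3 (chr10:63023800-63024099, minus strand) fell, and Sf3a3 (chr4:124714611-124714910, plus strand), Snrpe (chr1:133610231-133610530, minus strand) and Snrpd2 (chr7:19149588-19149887, plus strand) rose.
Srsf5: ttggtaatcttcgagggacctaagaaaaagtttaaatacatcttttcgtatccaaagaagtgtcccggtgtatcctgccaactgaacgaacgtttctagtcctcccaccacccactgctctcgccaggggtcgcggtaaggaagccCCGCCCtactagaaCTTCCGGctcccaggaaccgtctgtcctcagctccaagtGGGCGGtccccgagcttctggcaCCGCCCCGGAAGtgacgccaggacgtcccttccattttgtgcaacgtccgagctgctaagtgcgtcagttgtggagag
Sf3b1: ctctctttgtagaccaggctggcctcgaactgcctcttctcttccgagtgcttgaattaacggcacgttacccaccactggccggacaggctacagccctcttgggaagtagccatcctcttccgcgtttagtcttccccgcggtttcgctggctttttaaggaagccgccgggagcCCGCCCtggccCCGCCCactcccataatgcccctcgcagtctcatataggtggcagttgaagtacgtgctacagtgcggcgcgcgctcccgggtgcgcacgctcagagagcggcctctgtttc
Hnrnph3: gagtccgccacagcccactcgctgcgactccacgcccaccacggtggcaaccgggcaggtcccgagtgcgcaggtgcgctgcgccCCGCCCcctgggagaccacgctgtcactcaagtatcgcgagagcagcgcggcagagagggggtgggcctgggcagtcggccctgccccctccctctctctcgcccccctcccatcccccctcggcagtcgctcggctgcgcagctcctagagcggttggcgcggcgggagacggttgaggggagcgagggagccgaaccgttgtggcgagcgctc
Sf3a3: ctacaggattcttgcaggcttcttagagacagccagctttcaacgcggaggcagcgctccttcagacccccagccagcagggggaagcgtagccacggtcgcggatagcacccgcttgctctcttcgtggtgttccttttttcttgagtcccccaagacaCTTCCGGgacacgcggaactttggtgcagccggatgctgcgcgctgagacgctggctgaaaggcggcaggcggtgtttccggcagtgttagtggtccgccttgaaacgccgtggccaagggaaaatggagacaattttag
Snrpe: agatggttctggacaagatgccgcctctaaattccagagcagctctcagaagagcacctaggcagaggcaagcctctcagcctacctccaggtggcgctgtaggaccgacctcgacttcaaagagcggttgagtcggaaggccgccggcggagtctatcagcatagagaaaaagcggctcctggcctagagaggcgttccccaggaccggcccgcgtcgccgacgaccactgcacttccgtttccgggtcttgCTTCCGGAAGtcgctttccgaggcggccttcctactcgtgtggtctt
Snrpd2: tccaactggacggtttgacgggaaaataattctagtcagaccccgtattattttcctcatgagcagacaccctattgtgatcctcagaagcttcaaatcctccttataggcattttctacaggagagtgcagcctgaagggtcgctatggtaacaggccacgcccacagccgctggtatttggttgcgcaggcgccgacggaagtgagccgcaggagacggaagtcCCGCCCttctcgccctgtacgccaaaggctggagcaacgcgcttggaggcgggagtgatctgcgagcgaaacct

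Promoters could be matched for 46 members; Hnrnpll, Snrpd1, Hnrnpul2, Sf3b5, Snrpb and Sf3b4 are the 6 named only. CCGGAAG was in 16 of the 46 promoters (34.8%), in 18.4% of the 9980 promoters matched to genes of the table and in 9.12% of all 27025 promoters. By role group it was in 6 of 7 SF3 promoters (Sf3a1, Sf3a2, Sf3a3, Sf3b2, Sf3b3 and Sf3b6), in 4 of 11 SR promoters, in 2 of 6 Sm promoters, in 2 of 4 promoters of U1 and U2 proteins and in 2 of 18 hnRNP promoters. GGGCGG was in 32 of 46 (69.6%), near the 65.9% of the table's genes. Of the other 5 motifs searched on both strands, CCAAT was in 47.8% of the members' promoters and 38.9% of those of the table's genes. TGACGT, part of the cyclic AMP response element, was in 23.9% and 12.2%, CACGTG in 10.9% and 10.5%, TATAAA in 13.0% and 7.17%, and TTCCCGC in 10.9% and 8.76%. The 7 motifs and the members were chosen with results of these data known, and a match describes letters in this window, not a bound site.

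The SR proteins were divided in Veh against FI, with 2 members higher (18.2%), 5 lower (45.5%) and 4 not called (median -0.19). On the TPM scale 6 were higher and 3 lower. Here and for the role groups below, counts are to be read beside the shares of all genes given above for each comparison and scale. Srsf5, an SR protein whose promoter is shown above, had 80.1, 88.5, 92.6 and 99.5 RPKM in Tub libraries, 64.8, 70.6 and 67.9 RPKM in Veh libraries and 263.2, 362.8 and 311.0 RPKM in FI libraries. Its FI libraries lay far above all cultured ones, and it was the lowest change of all members in Veh against FI, at -2.18 (SE 0.14, adjusted p = 7.8e-08), a ratio of means of 0.217. Srsf5 was also among the 3 members higher in Tub than in Veh libraries, by 0.40 (SE 0.13, adjusted p = 0.02), with no overlap between the groups. That small rise was not called without Tub replicate 4 (0.36, adjusted p = 0.06), Veh replicate 1 (0.37, adjusted p = 0.069) or Veh replicate 3 (0.41, adjusted p = 0.056). Srsf11, a larger relative of the classical SR proteins, had 31.7 to 32.9 RPKM in Veh libraries and 61.9 to 73.0 RPKM in FI libraries and fell by 1.03 (SE 0.10, adjusted p = 2.4e-06). In Tub libraries it had 32.0 to 34.5 RPKM, which overlapped with Veh libraries.

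Srsf1, the best studied SR protein and a driver of exon inclusion, went against that direction. It had 28.5, 35.5, 36.9 and 30.4 RPKM in Tub libraries, 82.4, 77.8 and 79.6 RPKM in Veh libraries and 30.0, 41.1 and 50.2 RPKM in FI libraries. The 3 Veh libraries stood above all 7 others. Veh exceeded FI libraries by 0.99 (SE 0.17, adjusted p = 0.00025), and Tub libraries were below Veh libraries by a change of -1.27 (SE 0.16, adjusted p = 3.2e-05). Srsf9 was the other SR gene higher in Veh than in FI libraries, by 0.65 (SE 0.15, adjusted p = 0.0027). Its fall in Tub against Veh, -0.45 (adjusted p = 0.018), was not called without Tub replicate 1 (-0.42, adjusted p = 0.052), Veh replicate 2 (-0.43, adjusted p = 0.064) or Veh replicate 3 (-0.42, adjusted p = 0.064).

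In Tub against Veh, 8 of the 11 SR genes fell and 2 rose. Srsf2, which is also tied to transcript elongation, averaged 83.2 ± 7.93 RPKM in Tub and 184.1 ± 23.8 RPKM in Veh libraries (change -1.13, SE 0.19, adjusted p = 0.00035). Srsf7, which works with Srsf3 in mRNA export, had 64.4, 75.1, 68.0 and 77.4 RPKM in Tub libraries, 156.9, 158.3 and 141.3 RPKM in Veh libraries and 180.7, 318.0 and 257.7 RPKM in FI libraries. Its 3 groups did not overlap, and the order was Tub, Veh, FI from low to high. The change of Srsf7 was -1.09 in Tub against Veh (SE 0.17, adjusted p = 0.00019), -0.69 in Veh against FI (adjusted p = 0.0055) and -1.78 in Tub against FI (SE 0.17, adjusted p = 2.8e-06), and on the TPM scale the value for Veh against FI was -0.09 (adjusted p = 0.64). Srsf3, the smallest SR protein, showed the same order of means at 50.9 ± 4.62 RPKM in Tub, 96.3 ± 10.4 RPKM in Veh and 132.7 ± 27.5 RPKM in FI libraries. Its Veh and FI libraries overlapped, and its change of -0.44 in Veh against FI (adjusted p = 0.031) became 0.15 on the TPM scale. That change was also not called without FI replicate 2 (-0.33, adjusted p = 0.088), FI replicate 3 (-0.37, adjusted p = 0.1), Veh replicate 1 (-0.36, adjusted p = 0.11) or Veh replicate 2 (-0.46, adjusted p = 0.062).

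Srsf10, a splicing repressor when dephosphorylated, averaged 22.0 ± 0.978 RPKM in Tub, 41.3 ± 3.79 RPKM in Veh and 43.2 ± 7.55 RPKM in FI libraries. It fell in Tub against Veh by 0.88 (SE 0.13, adjusted p = 9.6e-05). Srsf4 and Srsf6, both long SR proteins, fell in the same comparison by 0.49 and 0.51. Srsf12, a relative of Srsf10, stood at or near the floor that takes the place of zeros in the table in every Veh library, at 0.00354, 0.00354 and 0.00709 RPKM. It had 0.409 to 0.708 RPKM in Tub libraries and 0.355 to 0.565 RPKM in FI libraries. The Srsf12 call of 0.64 in Tub against Veh therefore rests on Veh values that are not measured levels, and no fold is given for it. The same Veh values lie behind its call in Veh against FI (-0.52, adjusted p = 0.0002), where Srsf12 is 1 of the 5 SR genes counted as lower. In Tub against FI, 8 of 11 SR genes were lower and none higher on the deposited scale, while on the TPM scale 4 were lower and 3 higher; Srsf5, at -1.77 (SE 0.13, adjusted p = 3e-07), and Srsf7 were the lowest of the group on the deposited scale.

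**Figure D2:**
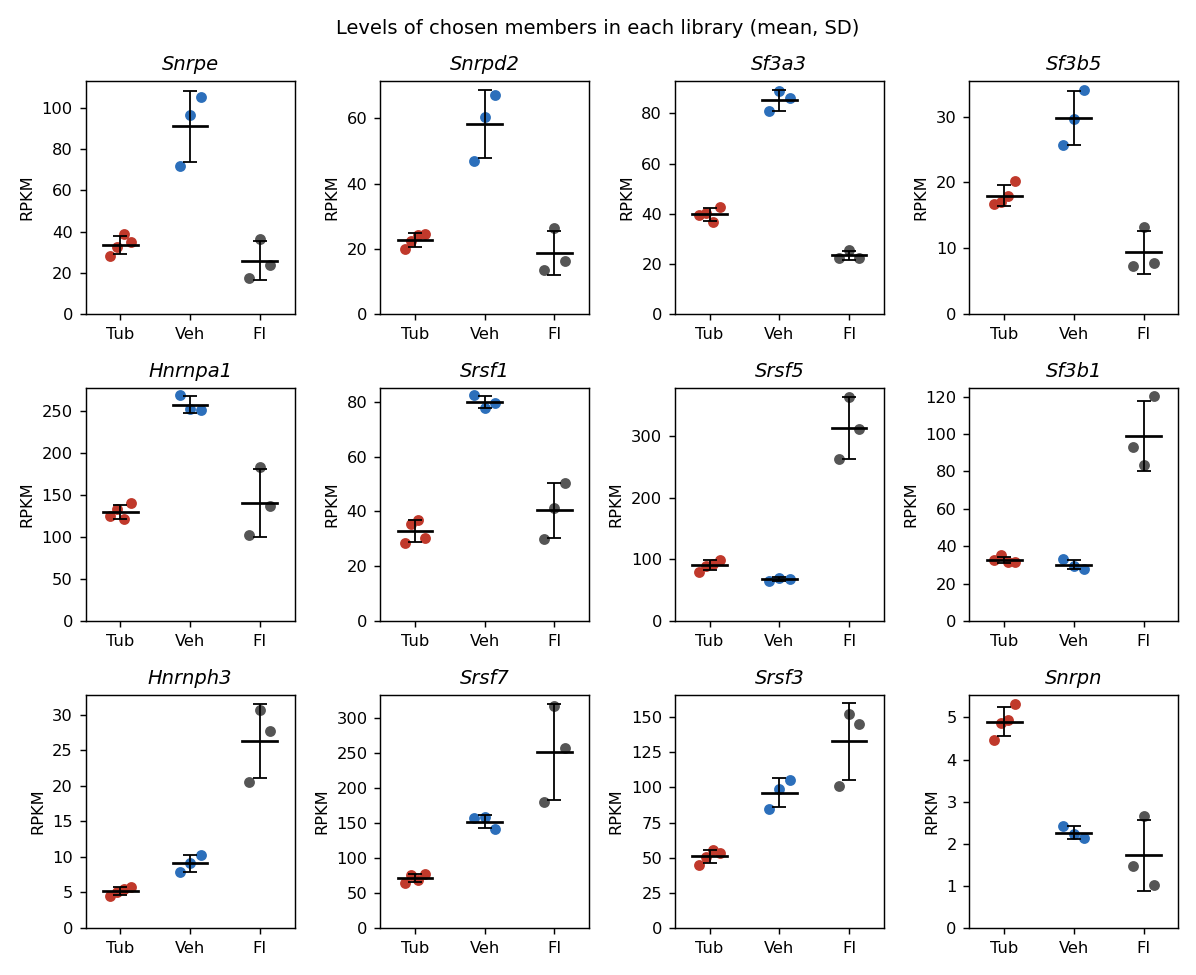
RPKM of 12 members in each library, with Tub in red, Veh in blue and FI in grey; points are libraries, the bar is the mean and the whisker the SD (n = 4, 3 and 3), and each axis starts at 0. Snrpe, Snrpd2, Sf3a3, Sf3b5, Hnrnpa1 and Srsf1 are highest in the Veh libraries, Srsf5, Sf3b1, Hnrnph3, Srsf7 and Srsf3 have their highest means in FI libraries, and Snrpn is highest in the 4 Tub libraries.

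Most hnRNP genes were lower in Tub against Veh: 17 of 20 fell, none rose and 3 were not called (Hnrnpul2, Hnrnph1 and Hnrnph2). The share that fell was 85.0%, beside 29.7% of all genes, and the median was -0.71 against 0.02 over all genes. Their summed level was 1055.7 ± 37.8 RPKM in Tub, 1767.8 ± 31.2 RPKM in Veh and 1756.2 ± 326.7 RPKM in FI libraries. In Veh against FI 6 hnRNP genes were higher, 7 lower and 7 not called. These are 30.0% higher and 35.0% lower, near the 32.0% and 35.0% of all genes. On the TPM scale 13 were higher and 1 lower (65.0% and 5.0%, beside 49.1% and 22.6% of all genes). In Tub against FI 14 were lower and none higher on the deposited scale, while 7 were higher and 6 lower on the TPM scale.

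In the A/B and D group, 7 of 7 genes fell in Tub against Veh. Hnrnpa1, a repressor of exon inclusion that opposes Srsf1, had 125.2, 133.5, 121.5 and 140.0 RPKM in Tub libraries, 269.1, 252.3 and 251.2 RPKM in Veh libraries and 102.2, 182.9 and 137.3 RPKM in FI libraries. The Veh libraries lay above all others, and the Tub libraries fell inside the FI range. Its change was 0.91 in Veh against FI (SE 0.18, adjusted p = 0.00088) and -0.98 in Tub against Veh (SE 0.17, adjusted p = 0.0004). Hnrnpa2b1, a relative that also acts in RNA transport, averaged 117.7 ± 9.46 RPKM in Tub, 208.0 ± 35.2 RPKM in Veh and 228.0 ± 58.4 RPKM in FI libraries. It fell in Tub against Veh by 0.80 (adjusted p = 0.003), and its Veh and FI libraries overlapped (-0.11, adjusted p = 0.64; 0.49 on the TPM scale).

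Hnrnpd, known as AUF1, which promotes the decay of mRNAs with AU-rich elements and has been studied in muscle stem cells, had 23.1 to 27.2 RPKM in Tub libraries, 48.0 to 54.9 RPKM in Veh libraries and 31.6 to 37.5 RPKM in FI libraries. The 3 ranges were separate, with Veh highest. It rose in Veh against FI by 0.61 (SE 0.11, adjusted p = 0.00052) and fell in Tub against Veh by 1.0 (SE 0.11, adjusted p = 9e-06). In Tub against FI its change was -0.39 (adjusted p = 0.007) on the deposited scale and 0.31 on the TPM scale. Hnrnpdl, a relative of Hnrnpd, fell in Tub against Veh by 1.06 (SE 0.14, adjusted p = 3.8e-05), and its call in Veh against FI (-0.35, adjusted p = 0.049) became 0.23 on the TPM scale. That call of Hnrnpdl was lost without FI replicate 2 or 3, Tub replicate 2 or 4, or Veh replicate 1 or 2 (changes of -0.37 to -0.26, adjusted p of 0.066 to 0.18). Hnrnpa0, a minor member of the group, had 2.81 to 6.54 RPKM in Tub libraries, 9.88 to 14.8 RPKM in Veh libraries and 7.19 to 7.79 RPKM in FI libraries. At -1.33 (SE 0.22, adjusted p = 0.00024) it was among the 3 lowest changes of all members in Tub against Veh, with every Tub library below every Veh library. Its rise in Veh against FI (0.56, adjusted p = 0.049) was lost for Hnrnpa0 without any 1 of the FI libraries, Tub replicate 1 or 2, or Veh replicate 1 or 3 (0.39 to 0.62, adjusted p of 0.052 to 0.19).

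Of the 9 genes of the C, U and L group, which here also holds the genes for hnRNP R, K and M, 8 fell in Tub against Veh. Hnrnpll, a splicing regulator known from T cells, had 6.40 to 8.21 RPKM in Tub libraries, 13.9 to 17.0 RPKM in Veh libraries and 17.0 to 22.8 RPKM in FI libraries. Its lowest FI library met the highest Veh library to the digits given. It fell by 1.01 in Tub against Veh (SE 0.13, adjusted p = 4.6e-05) and by 1.40 in Tub against FI (SE 0.13, adjusted p = 2.3e-06). Hnrnpu, a nuclear scaffold protein, averaged 88.0 ± 3.11 RPKM in Tub, 162.9 ± 10.8 RPKM in Veh and 150.1 ± 39.4 RPKM in FI libraries and fell by 0.88 in Tub against Veh (adjusted p = 0.00047). Hnrnpk, which binds C-rich RNA and was the most abundant hnRNP transcript per length in each group, averaged 174.2 ± 16.3 RPKM in Tub, 265.5 ± 22.6 RPKM in Veh and 363.6 ± 47.8 RPKM in FI libraries. It fell in Tub against Veh by 0.61 (adjusted p = 0.0032), and its change in Veh against FI (-0.45, adjusted p = 0.022) was 0.15 on the TPM scale. Hnrnpc, which binds uridine tracts, and Hnrnpll were likewise called lower in Veh than in FI libraries, at -0.55 and -0.39, and these became 0.05 and 0.18 on the TPM scale. The calls of these 3 genes in Veh against FI were also lost without FI replicate 3, where Hnrnpk stood at -0.42 (adjusted p = 0.059), Hnrnpc at -0.50 (adjusted p = 0.056) and Hnrnpll at -0.33 (adjusted p = 0.088). Single Veh libraries ended them as well: replicate 2 or 3 for Hnrnpk (-0.45 and -0.39), replicate 1 for Hnrnpc (-0.49) and replicate 1 or 3 for Hnrnpll (-0.40 and -0.32), and for Hnrnpll also FI replicate 2 (-0.32). Hnrnpul1, Hnrnpl, which binds CA repeats, and Hnrnpm rose in Veh against FI by 0.75, 0.52 and 0.48, and the rise of Hnrnpl was 0.40 and not called without Veh replicate 1 (adjusted p = 0.066).

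The F/H group binds runs of guanines. None of its 4 genes rose in any comparison on the deposited scale; on the TPM scale Hnrnpf was called higher in Veh against FI (0.77, adjusted p = 0.00036). Hnrnph3, whose promoter is shown above, had 4.55, 5.12, 5.45 and 5.72 RPKM in Tub libraries, 7.88, 9.13 and 10.3 RPKM in Veh libraries and 20.6, 30.7 and 27.7 RPKM in FI libraries. The groups did not overlap, with Tub lowest. Its change was -1.43 in Veh against FI (SE 0.15, adjusted p = 6.1e-06), -0.70 in Tub against Veh (SE 0.14, adjusted p = 0.0014) and -2.12 in Tub against FI (SE 0.14, adjusted p = 1.4e-07), the lowest of all members in the last comparison. Hnrnph1, a widely expressed member of the group, had 13.2 to 21.3 RPKM in Tub libraries, 17.0 to 25.6 RPKM in Veh libraries and 31.9 to 48.6 RPKM in FI libraries, so that Tub and Veh overlapped. It fell in Veh against FI by 0.95 (SE 0.20, adjusted p = 0.0013), which was -0.37 and not called on the TPM scale (adjusted p = 0.11). Hnrnph2 had about the same level in Tub and Veh libraries (46.7 ± 3.93 and 48.3 ± 4.23 RPKM; change -0.05, SE 0.13). Hnrnpf fell in Tub against Veh by 0.89 (SE 0.15, adjusted p = 0.00027).

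The Sm core proteins form the ring on the snRNA, and 6 of their 8 genes rose in Veh against FI, with none lower and a median of 1.18 (8 higher on the TPM scale). Snrpe, the gene for SmE, had 28.2, 32.7, 38.7 and 35.0 RPKM in Tub libraries, 71.8, 96.5 and 104.9 RPKM in Veh libraries and 17.7, 36.3 and 24.0 RPKM in FI libraries. Each Veh library lay well above every other, and the Tub and FI libraries overlapped. Its mean in Veh libraries was 3.50 times the FI mean, a change of 1.81 (SE 0.23, adjusted p = 2.1e-05), and its change of -1.40 in Tub against Veh (SE 0.21, adjusted p = 0.00014) was the lowest of all members there.

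Snrpd2, the gene for SmD2, had 20.0, 22.5, 24.3 and 24.7 RPKM in Tub libraries, 47.0, 60.6 and 67.3 RPKM in Veh libraries and 13.5, 26.3 and 16.2 RPKM in FI libraries. The order of the groups was as for Snrpe, with Veh alone standing apart. Snrpd2 rose by 1.63 in Veh against FI (SE 0.21, adjusted p = 2.7e-05) and fell by 1.30 in Tub against Veh (SE 0.20, adjusted p = 0.00014). Snrpd1, Snrpf and Snrpg, genes for SmD1, SmF and SmG, rose by 1.53, 1.19 and 1.17 in Veh against FI and fell by 1.20, 1.20 and 1.17 in Tub against Veh. Snrpd3, the gene for SmD3, rose by 1.10 in Veh against FI (SE 0.19, adjusted p = 0.0003), and in Tub against Veh it missed the threshold (-0.43, adjusted p = 0.056) although each of its Tub libraries was below each Veh library; without FI replicate 1 (adjusted p = 0.039) or FI replicate 2 (adjusted p = 0.0058) it was called. In Tub against FI, Snrpd3 was higher by 0.67 (adjusted p = 0.0064), while Snrpe and Snrpd2, at 0.41 and 0.33, were called only when FI replicate 2 was left out (0.67 and 0.59) or on the TPM scale (1.10 and 1.01).

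Snrpb, the gene for SmB, was the most abundant member per length in both cultures, with 254.5 to 298.2 RPKM in Tub libraries, 304.2 to 379.9 RPKM in Veh libraries and 181.6 to 383.1 RPKM in FI libraries. With all libraries it was called in none of the 3 comparisons on the deposited scale. Without FI replicate 2, Snrpb was called higher in Veh against FI (0.67, adjusted p = 0.0045) and lower in Tub against Veh (-0.35, adjusted p = 0.049), and on the TPM scale it was higher in both cultures than in FI libraries (1.0 in Veh and 0.77 in Tub). Its close relative Snrpn, an imprinted gene for the SmN protein that stands in for SmB in brain and heart, behaved differently. Snrpn had 4.47, 4.87, 4.95 and 5.32 RPKM in Tub libraries, 2.42, 2.24 and 2.13 RPKM in Veh libraries and 1.47, 2.67 and 1.03 RPKM in FI libraries. Every Tub library was above every other library, and Veh and FI overlapped (0.31, adjusted p = 0.16; 0.54, adjusted p = 0.0024, without FI replicate 2). Snrpn had the highest change of all members in Tub against Veh, 0.85 (SE 0.17, adjusted p = 0.0011), and in Tub against FI, 1.16 (SE 0.17, adjusted p = 8.7e-05). Within a library, Snrpn stood at 1.76% to 1.85% of Snrpb in Tub, 0.560% to 0.797% in Veh and 0.398% to 0.811% in FI libraries. Reads of Snrpn and Snrpb, which have similar coding sequences, and of Snurf, which shares the Snrpn transcript, may not be separable.

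The 4 genes for proteins specific to the U1 or U2 snRNP moved less. Snrpc, of the U1 snRNP, and Snrpa1 and Snrpb2, of the U2 snRNP, rose by 0.93, 0.84 and 0.77 in Veh against FI, and Snrpa, of the U1 snRNP, was not called at 0.37 (adjusted p = 0.08), or was called at 0.56 without FI replicate 2 (adjusted p = 0.0048). Snrpc had 12.9 to 14.9 RPKM in Tub libraries, 16.2 to 18.1 RPKM in Veh libraries and 6.86 to 11.3 RPKM in FI libraries, with no overlap between any groups. In Tub against Veh, Snrpa fell by 0.62 (SE 0.16, adjusted p = 0.0063) and Snrpb2 fell by 0.56 (SE 0.15, adjusted p = 0.0074). Snrpa averaged 42.1 ± 1.26 RPKM in Tub and 65.6 ± 7.84 RPKM in Veh libraries. For Snrpc and Snrpa1 each Tub library was below each Veh library, but the fit over all 10 libraries did not call them (adjusted p = 0.076 and 0.3). Snrpc was called without FI replicate 1 (adjusted p = 0.034) or FI replicate 2 (adjusted p = 0.0096).

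The SF3 complex gave the sharpest contrast within a group. In Veh against FI, 7 of its 9 genes rose, Sf3b1 fell and Sf3b4 was not called (8 higher and 1 lower on the TPM scale). Without FI replicate 2 the value for Sf3b4 was 0.56 and was called (adjusted p = 0.011). Sf3a3, a subunit of SF3A, had 39.4, 40.3, 36.6 and 42.9 RPKM in Tub libraries, 80.8, 89.1 and 86.1 RPKM in Veh libraries and 22.3, 25.7 and 22.5 RPKM in FI libraries. The 3 groups were far apart, with a narrow spread in each. Veh exceeded FI libraries 3.63-fold in the mean, the highest change of any member at 1.82 (SE 0.11, adjusted p = 3.7e-08), and the change was -1.08 in Tub against Veh (SE 0.10, adjusted p = 2.8e-06) and 0.74 in Tub against FI (SE 0.10, adjusted p = 4.8e-05).

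Sf3b1, the largest subunit of SF3B, which clamps the branch point and is mutated in myelodysplastic syndromes in humans, had 32.8, 35.1, 31.4 and 31.7 RPKM in Tub libraries, 33.1, 29.6 and 28.0 RPKM in Veh libraries and 93.1, 83.6 and 120.1 RPKM in FI libraries. The cultures overlapped with each other and lay below every FI library. The change of Sf3b1 was -1.66 in Veh against FI (SE 0.14, adjusted p = 5.7e-07) and -1.55 in Tub against FI (SE 0.13, adjusted p = 7.3e-07), and it did not pass the test in Tub against Veh (0.11, SE 0.13, adjusted p = 0.47). The ratio of Sf3b1 to Sf3a3 within a library, which does not depend on the scaling, was 0.739 to 0.871 in Tub, 0.325 to 0.410 in Veh and 3.25 to 5.34 in FI libraries.

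Among the other subunits, Sf3b5, a small subunit of SF3B, had 16.7, 17.1, 18.0 and 20.3 RPKM in Tub libraries, 25.7, 29.6 and 34.0 RPKM in Veh libraries and 7.28, 13.2 and 7.74 RPKM in FI libraries. The groups did not overlap, and Tub lay between Veh and FI. Sf3b5 rose by 1.60 in Veh against FI (SE 0.19, adjusted p = 1.3e-05), fell by 0.69 in Tub against Veh (SE 0.18, adjusted p = 0.0057) and was higher by 0.91 in Tub against FI (SE 0.18, adjusted p = 0.00076). Sf3a1 and Sf3a2, the other subunits of SF3A, rose in Veh against FI by 0.94 and 1.03 and fell in Tub against Veh by 0.64 and 0.43; for Sf3a2 that value was -0.31 and not called on the TPM scale (adjusted p = 0.059). Sf3b2, Sf3b3, Sf3b4 and Sf3b6 had changes between -0.22 and -0.02 in Tub against Veh, and none of these was called. Sf3b6, the subunit that contacts the branch point adenosine, and Sf3b2 and Sf3b3 were higher in Tub than in FI libraries, by 0.71, 0.39 and 0.38. The last 2 calls were lost when single libraries were left out. Without FI replicate 2, Sf3b2 stood at 0.21 (adjusted p = 0.11) and Sf3b3 at 0.19 (adjusted p = 0.19). Sf3b2 also missed the threshold without Tub replicate 1, 2 or 4 (0.34 to 0.40), and Sf3b3 without any 1 of the Tub libraries or Veh replicate 2 or 3 (0.33 to 0.42).

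**Figure D3:**
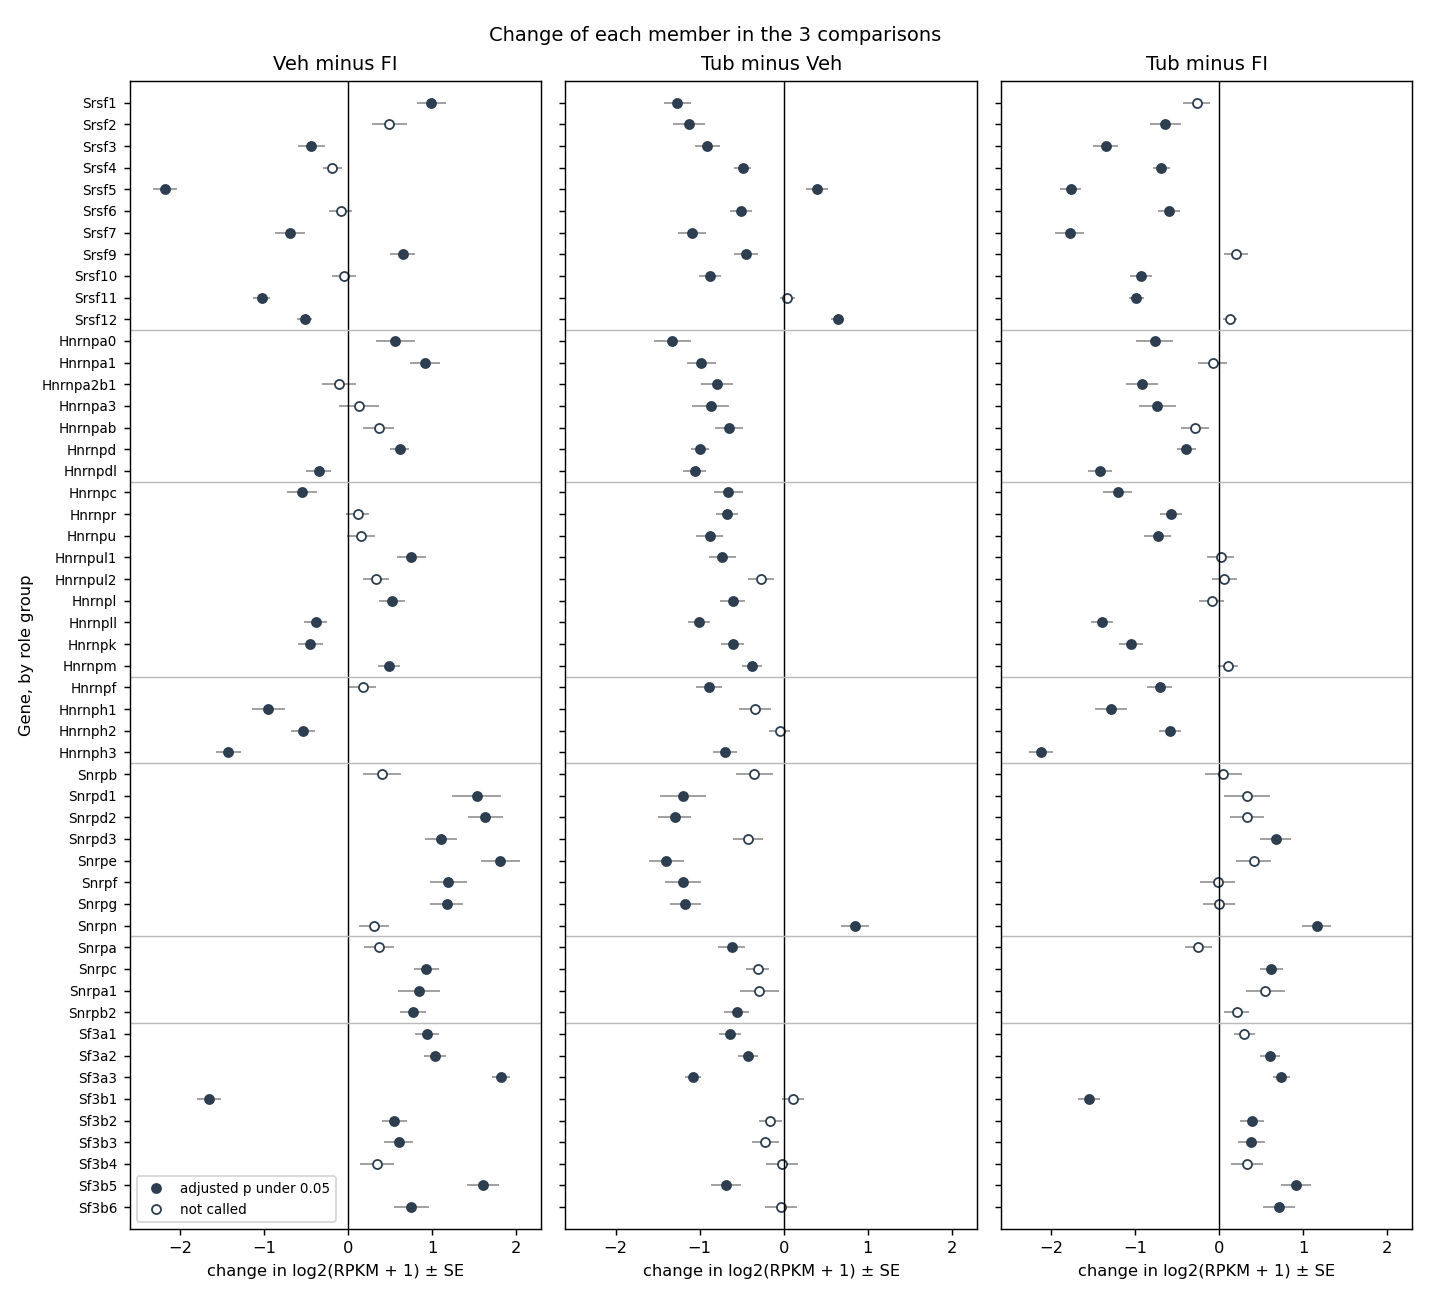
Change of each of the 52 members in log2(RPKM + 1), with its SE, in Veh minus FI, Tub minus Veh and Tub minus FI; genes are in rows by role group and filled points have an adjusted p under 0.05. In the middle panel nearly all points lie left of 0, with Srsf5, Srsf12 and Snrpn filled on the right, and in the left panel the Sm and SF3 points lie right of 0 except Sf3b1.

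The other genes of the splicing pathway were taken from 10 lists by role, of which 152 genes were tested. In Veh against FI 61 were higher and 31 lower (median 0.18), in Tub against Veh 18 were higher and 63 lower (median -0.24), and in Tub against FI 44 were higher and 49 lower (median -0.02). On the TPM scale these splits were 105 and 8, 26 and 52, and 96 and 20. In percent of the list, 69.1% were then higher and 5.26% lower in Veh against FI, 17.1% and 34.2% in Tub against Veh, and 63.2% and 13.2% in Tub against FI, to be read against the shares of all genes on that scale given above. The share called lower in Tub against Veh was 41.4%, against 69.2% of the members and 29.7% of all genes, a difference between lists that was not tested. The counts of each list below are likewise to be read beside the shares of all genes. On the deposited scale these were 32.0% higher and 35.0% lower in Veh against FI, and 29.6% and 29.7% in Tub against Veh.

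Assembly of the Sm ring is carried out by the SMN complex, and 12 of 14 genes of this list rose in Veh against FI, with none lower (median 0.92). Gemin6, a subunit of the complex that resembles an Sm protein, had 11.3 to 13.1 RPKM in Tub libraries, 40.1 to 48.5 RPKM in Veh libraries and 6.02 to 9.77 RPKM in FI libraries. It rose by 2.39 in Veh against FI (SE 0.15, adjusted p = 6e-08) and fell by 1.81 in Tub against Veh (SE 0.14, adjusted p = 6.8e-07). Clns1a, the chaperone pICln that holds Sm proteins before assembly, rose by 1.58 in Veh against FI and fell by 0.56 in Tub against Veh. Smn1, the gene for SMN, whose human counterpart is lost in spinal muscular atrophy, averaged 23.6 ± 0.813 RPKM in Tub, 27.1 ± 0.716 RPKM in Veh and 12.0 ± 1.81 RPKM in FI libraries. It rose by 1.12 in Veh against FI (adjusted p = 3.5e-06) and did not pass in Tub against Veh over all libraries (-0.19, adjusted p = 0.14), though without FI replicate 2 it did (adjusted p = 0.045). In Tub against Veh, 8 of the 14 fell, and Snupn, the adaptor that imports finished snRNPs into the nucleus, was the only one of the list that rose. Snupn had 24.3 to 28.4 RPKM in Tub libraries and 10.1 to 12.5 RPKM in Veh libraries, a change of 1.12 (SE 0.16, adjusted p = 9.3e-05).

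Some LSM proteins form the ring on U6 and a cytoplasmic ring in mRNA decay. The list of 12 LSM genes also holds others, such as Lsm14b, so its counts and sums are not those of the rings alone. In Veh against FI 9 of the 12 genes were higher and none lower. In Tub against Veh 9 of the 12 were lower and none higher (median -1.32, with 9 lower and 1 higher on the TPM scale). Lsm2, shared by both rings, had 5.14, 5.91, 6.15 and 6.23 RPKM in Tub libraries, 26.2, 33.4 and 34.0 RPKM in Veh libraries and 5.68, 11.3 and 8.14 RPKM in FI libraries. Its mean in Veh libraries was 5.32 times the mean in Tub libraries, and its change in Tub against Veh was -2.22 (SE 0.18, adjusted p = 1e-06). Lsm4 averaged 31.1 ± 1.92 RPKM in Tub, 150.2 ± 15 RPKM in Veh and 95.0 ± 22.6 RPKM in FI libraries, and Lsm6 averaged 6.50 ± 0.431, 24.7 ± 2.77 and 20.3 ± 1.96 RPKM in the same order. In Tub against Veh, Lsm4 fell by 2.23 and Lsm6 fell by 1.77. Summed over the list, LSM transcripts took 0.0547% to 0.0635% of all RPKM in Tub, 0.143% to 0.160% in Veh and 0.0512% to 0.0650% in FI libraries.

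Of 9 genes for kinases of SR proteins, 1 rose and 5 fell in Veh against FI (11.1% and 55.6%, beside 32.0% and 35.0% of all genes). On the TPM scale 3 rose and 3 fell in that comparison. In Tub against Veh 4 rose and 1 fell (44.4% and 11.1%, beside 29.6% and 29.7% of all genes). Clk1, a nuclear kinase that releases SR proteins from speckles, had 7.58, 7.71, 8.94 and 8.29 RPKM in Tub libraries, 4.73, 5.34 and 5.61 RPKM in Veh libraries and 47.6, 47.7 and 44.4 RPKM in FI libraries. The FI mean was 8.91 times the Veh mean, and the change in Veh against FI was -2.94 (SE 0.11, adjusted p = 8.7e-10). Clk4, its closest relative, changed by -2.27 in Veh against FI (SE 0.10, adjusted p = 4.6e-09). Clk1, Clk3 and Clk4 were all higher in Tub than in Veh libraries, by 0.55, 0.97 and 0.86, with no overlap between these groups. Srpk1, the main cytoplasmic SR kinase, showed the opposite order, at 7.11 ± 0.205 RPKM in Tub, 11.1 ± 0.309 RPKM in Veh and 3.84 ± 0.413 RPKM in FI libraries. Its relative Srpk2 averaged 3.09 ± 0.167 RPKM in Tub, 1.11 ± 0.302 RPKM in Veh and 2.42 ± 0.464 RPKM in FI libraries.

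**Figure D4:**
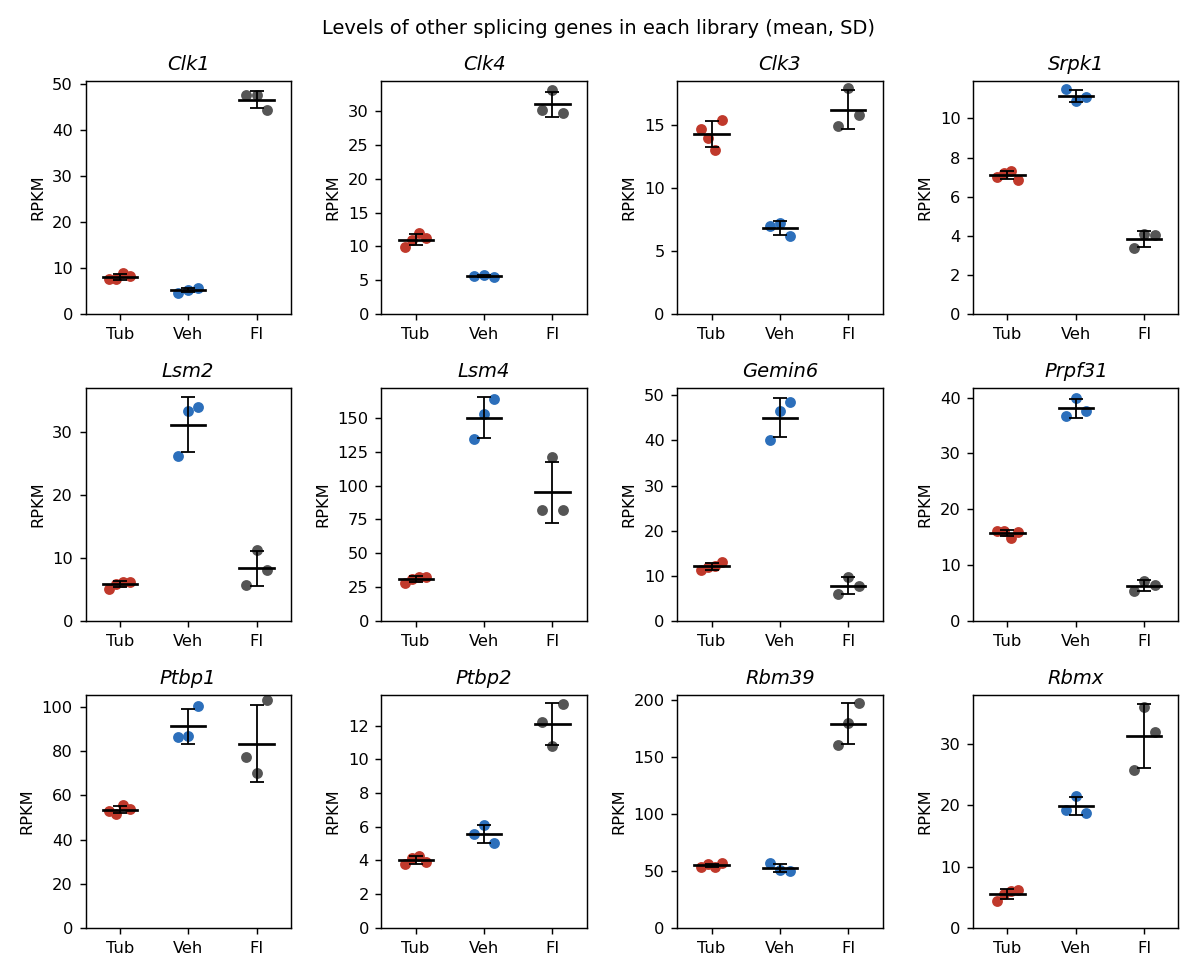
RPKM of 12 splicing genes outside the member families in each library, with Tub in red, Veh in blue and FI in grey; points are libraries, the bar is the mean and the whisker the SD (n = 4, 3 and 3), and each axis starts at 0. Clk1, Clk4, Ptbp2, Rbm39 and Rbmx are highest in FI libraries, and Srpk1, Lsm2, Lsm4, Gemin6 and Prpf31 are highest in Veh libraries.

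Of the 19 SR-related proteins, 11 fell and 1 rose in Veh against FI (2 and 6 on the TPM scale). Rbm39, a partner of U2AF, averaged 55.1 ± 1.44 RPKM in Tub, 52.7 ± 3.70 RPKM in Veh and 179.4 ± 18.1 RPKM in FI libraries, a change of -1.75 in Veh against FI (SE 0.11, adjusted p = 8e-08). Rsrc2 fell by 1.68 in the same comparison, and neither was called in Tub against Veh. Tra2a, a sequence-specific activator of exons, fell by 0.96 in Tub against Veh (SE 0.18, adjusted p = 0.0006). The 33 genes of the tri-snRNP and catalytic core had 18 higher and 6 lower in Veh against FI (25 and 1 on the TPM scale). In Tub against Veh 6 were higher and 10 lower (18.2% and 30.3%, beside 29.6% and 29.7% of all genes). That split turned to 10 and 8 on the TPM scale. Prpf31, which binds U4 snRNA in the tri-snRNP, had 14.9 to 16.1 RPKM in Tub libraries, 36.7 to 40.0 RPKM in Veh libraries and 5.30 to 7.18 RPKM in FI libraries. It rose by 2.42 in Veh against FI (SE 0.11, adjusted p = 5.8e-09) and fell by 1.22 in Tub against Veh (SE 0.11, adjusted p = 1.8e-06). Ppih, a cyclophilin of the tri-snRNP, had a Veh mean 4.11 times its Tub mean (change -1.81, SE 0.15, adjusted p = 1.4e-06). Slu7, which guides the choice of the 3′ splice site, and Syf2 were higher in Tub than in Veh libraries, by 0.86 and 0.81.

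The remaining lists were mixed. Of 9 genes for U2AF and branch point proteins, 4 rose and 1 fell in Veh against FI (7 and 0 on the TPM scale), and 4 fell and none rose in Tub against Veh (2 and 0). U2af2, the large subunit of U2AF, fell by 0.90 (SE 0.14, adjusted p = 0.00017) and Phf5a, a part of SF3B outside the symbol families, by 0.97 (SE 0.19, adjusted p = 0.001) in Tub against Veh. Of 7 genes with Snrnp symbols, 2 rose and 2 fell in Tub against Veh (2 and 1 on the TPM scale), among them Snrnp25 of the minor spliceosome, higher by 0.47 (adjusted p = 0.032), a call of Snrnp25 that was lost without any 1 of the Tub libraries or Veh replicate 1 or 3 (0.43 to 0.48, adjusted p of 0.057 to 0.098). Of 14 other hnRNP-type proteins, 9 fell and none rose in Tub against Veh. Rbm3, a cold-inducible protein, fell by 2.10 (SE 0.13, adjusted p = 1.1e-07), Rbmx, known as hnRNP G, by 1.68 (SE 0.14, adjusted p = 1.2e-06) and Syncrip, known as hnRNP Q, by 1.35 (SE 0.12, adjusted p = 2.4e-06). Of 16 genes around the exon junction complex, 8 fell and 2 rose in Tub against Veh (6 and 3 on the TPM scale). Ddx39, a helicase of mRNA export, averaged 31.8 ± 2.04 RPKM in Tub, 97.0 ± 5.49 RPKM in Veh and 18.7 ± 5.28 RPKM in FI libraries.

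Of 19 tissue-type splicing regulators, 7 fell (36.8%, beside 29.7% of all genes) and none rose in Tub against Veh. In Veh against FI 4 rose and 6 fell (21.1% and 31.6%, beside 32.0% and 35.0% of all genes). That split turned to 10 and 2 on the TPM scale (median 0.41, against -0.11 on the deposited scale). Rbm24, a regulator of muscle exons, had 12.8 to 19.8 RPKM in Tub libraries, 40.3 to 50.6 RPKM in Veh libraries and 12.3 to 21.9 RPKM in FI libraries. The Veh libraries stood above all others (change -1.57 in Tub against Veh, SE 0.20, adjusted p = 3.1e-05). Mbnl1 and Celf2, regulators with opposed roles in muscle development, fell in Tub against Veh by 1.25 and 1.10. Ptbp1, a repressor of tissue-specific exons, averaged 53.5 ± 1.59 RPKM in Tub and 91.4 ± 7.96 RPKM in Veh libraries and fell by 0.76 (SE 0.13, adjusted p = 0.00042). Its relative Ptbp2, known from neurons, stood at 7.15% to 8.02% of Ptbp1 in Tub, 4.99% to 7.04% in Veh and 12.9% to 15.7% in FI libraries, so that the Tub range lay just above the Veh range and both lay below FI.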

How the data were processed

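RNA of 10 libraries, made from 5 ng RNA each with SMART-Seq v4 and read in pairs of 150 bases per the labels, was compared as 4 Tub, 3 Veh and 3 FI samples. The submitters' processing notes list edgeR, featureCounts, STAR, Subread, Trim Galore and the build mm10; versions and settings, including strand, are not given in the sources used here. The deposited table holds values without a unit in its header, read here as RPKM computed by the authors: multiplied by the union exon lengths of GENCODE M21 and 1 factor per library, they came out whole, to within 0.05 reads in each library, for 11887 of 12682 matched genes (93.7%) and for 51 of 52 members, all but Srsf12. One read in a gene of 1 kb equals 0.016 to 0.0339 RPKM. Reads in the table were 1.37 to 1.39 times the authors' scaled library size in FI and 0.82 to 0.92 times in cultured libraries. No value is 0, since a floor per gene takes the place of zeros. Values could not be tested as deposited counts, so log2(RPKM + 1) of all 12803 genes was fitted with limma 3.58.1 (R 4.3.3), with a variance trend and 1 mean per group over all libraries, and p-values were adjusted by Benjamini-Hochberg over all genes. The fit was tested on simulated data, with 200 of 12803 genes changed by 1 or 2 in log2. These 200 were drawn from genes with a mean log2(RPKM + 1) above 1, so recovery at lower levels was not tested. Changes of 1 were recovered for 94.5% to 96.0% of these genes, and false calls were 4.1% to 7.8% of all calls. Each simulated gene had the same spread in all groups, and far fewer genes changed than were called in the real data. Tables and figures used Python 3.11.15, numpy 2.4.6, pandas 2.3.3 and matplotlib 3.10.9.

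The members, the role groups, the 10 lists of other splicing genes (165 symbols listed, 152 tested) and the marker lists were chosen with earlier results of these data known. Per-sample values are given for up to 3 members with the lowest adjusted p per role group and comparison, for the 3 highest and 3 lowest changes, and for a fixed set of well-known genes; of other splicing genes, up to 2 of the largest rises and 2 of the largest falls per list and comparison are named. Alternatives were pseudocounts of 0.1 and 5, a mean RPKM of at least 1, the TPM scale (each library divided by its sum), relative log expression, only the groups compared, the replicate number as a block, each library left out and, chosen after seeing the data, limma's voom on recovered reads. Promoters came from RefSeq (GRCm38.p6).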

Additional observations from a re-analysis of the deposited data

Results flagged for a closer look

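In 83 groups of 4 Tub libraries, each of 1 named gene, the highest or lowest library was compared with the range of its group (Dixon's ratio, at its 95% critical value for 4 samples), and chance flags about 1 in 20 such groups. The named genes numbered 86, so not all of them were examined. The check marked 2. Snrpa1 had 53.9 RPKM in Tub replicate 4, against 45.1 to 46.6 RPKM in the other Tub libraries. Sf3b2 had 66.3 RPKM in Tub replicate 1, against 55.9 to 57.7 RPKM in the other Tub libraries, and its call in Tub against FI is among those that were lost without that library (0.34, adjusted p = 0.087).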

How the results depend on the processing

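Calls of members in Tub against Veh held best: of 39 calls, 37 to 39 kept call and direction under each alternative in which they were tested. Of 37 calls in Veh against FI 29 to 37 were kept, and of 32 in Tub against FI 20 to 32, with the TPM scale lowest in both. On the TPM scale, which by construction raises cultured against FI libraries, members higher and lower numbered 39 and 5 in Veh against FI and 30 and 11 in Tub against FI, and the medians were 0.98, -0.53 (Tub against Veh) and 0.44 (Tub against FI, reversed from -0.17). Fitted on only the FI and Veh libraries, 8 members were lower in Veh against FI. With voom on recovered reads, added after seeing the data, the median in Veh against FI was 0.48. With each library left out in turn, members lower in Veh against FI numbered 8 to 13, and members higher in Tub against FI numbered 7 to 14. The median change of all 52 members was then 0.25 to 0.52 in Veh against FI and -0.35 to -0.09 in Tub against FI.

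Among the genes named, changes of direction in which either value was called occurred on the TPM scale only. Changes of sign between 2 uncalled values also occurred under other alternatives, for 8 genes in Veh against FI, 3 in Tub against Veh and 10 in Tub against FI, such as Hnrnpf in Veh against FI (0.17, and -0.02 without FI replicate 1). In Veh against FI the reversed changes were 0.15 for Srsf3, 0.37 for Srsf4, 0.50 for Srsf6, 0.53 for Srsf10, 0.49 for Hnrnpa2b1, 0.23 for Hnrnpdl, 0.05 for Hnrnpc, 0.18 for Hnrnpll, 0.15 for Hnrnpk, 0.05 for Hnrnph2, 0.38 for Snupn, 0.23 for Celf2 and 0.41 for Slu7. In Tub against FI they were 0.43 for Srsf1, 0.08 for Srsf2, 0.12 for Srsf6, 0.64 for Hnrnpa1, 0.43 for Hnrnpab, 0.31 for Hnrnpd, 0.06 for Hnrnpr, 0.61 for Hnrnpl, 0.0 for Hnrnpf, 0.12 for Hnrnph2, 0.57 for Snrpf, 0.46 for Snrpa, 0.10 for Ptbp1, 0.51 for Clk3, 0.63 for Rbm24, 0.50 for Ppih, 0.12 for Syf2, 0.22 for Syncrip and 0.44 for Hdac6.

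Libraries with the same replicate number did not deviate together in every pair. Their correlations were -0.19 to 0.353 in Veh and FI, 0.036 to 0.376 in Tub and Veh and -0.091 to 0.23 in Tub and FI. Pairs with different numbers were not examined, so these values cannot decide whether the numbers mark a pairing. With the replicate block, members higher and lower numbered 25 and 13 in Veh against FI, 3 and 37 in Tub against Veh and 8 and 23 in Tub against FI. Levels under about 1 RPKM, such as those of Srsf12, are limited by the pseudocount and the floor.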

Other observations

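Within each group, which library was highest depended on the length of the member. Of the 26 members with at most the median exon length of 3.91 kb, FI replicate 2 was the highest FI library for 23 and FI replicate 1 the lowest for 22. Among the 26 longer members FI replicate 2 was highest for 10 and lowest for 9, and FI replicate 3 was highest for 12. FI replicate 1 was the lowest FI library for 17 of these longer members too, and for 39 of all 52. In the Tub group, replicate 4 was highest for 21 of the shorter and 9 of the longer members, and in the Veh group, replicate 3 was highest for 18 of the shorter and 6 of the longer ones while replicate 1 was lowest for 19 and 9. The genes of the Sm proteins are among the shorter members, and Sf3a1, Sf3b3 and Hnrnpul1 are among those with FI replicate 2 lowest. The cause was not tested.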
